A study of Mus musculus with 24 samples.

Results

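The cullin and F-box genes considered here encode the scaffolds and the substrate receptors of the cullin-RING ubiquitin ligases. They were taken from the deposited table of raw counts by symbol: every gene named Cul followed by a number, and every gene whose name starts with Fbxo, Fbxl or Fbxw followed by a number, with 1 annotated pseudogene left out. This gave 86 genes of the 54232 in the table, namely 8 cullins, 36 Fbxo, 19 Fbxl and 23 Fbxw genes. Of these, 85 are protein coding, and the remaining one, Fbxl12os, is an antisense transcript that carries the Fbxl prefix. In 79 of the 86 at least 1 read was counted over the 24 libraries, and 70 (8 Cul, 33 Fbxo, 18 Fbxl and 11 Fbxw) had more than 10 counts in all and were tested among 26116 genes.

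RNA was sequenced from the visceral fat of male C57BL6 mice, 10 weeks old per the labels and fed chow, in 4 groups of 6 libraries. Control mice had sham surgery and lentivirus for eGFP, and PNx mice had 5/6 nephrectomy, in which one kidney was removed and most of the other ligated, and the same GFP virus. NaKtide mice had sham surgery and lentivirus for NaKtide, a peptide made to block the oxidant amplification loop of the Na,K-ATPase, linked to GFP by a 2A sequence. PNx+NaKtide mice had the nephrectomy and the NaKtide virus. All 4 groups therefore carried a lentivirus given into the abdomen, with its insert driven by the adiponectin promoter, which is most active in adipocytes, while the RNA came from the whole tissue. In such bulk samples, fewer cells of a type and less RNA per cell cannot be told apart.

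A cullin holds the machinery of a ligase together. At one end it binds a RING protein, Rbx1 or Rnf7, which brings in the enzyme charged with ubiquitin, and at the other it binds an adaptor and a receptor that chooses the protein to be marked. In the SCF ligases Cul1 is the scaffold, Skp1 the adaptor and an F-box protein the receptor, and the letter after Fbx names the part that grips the substrate, W for WD40 repeats, L for leucine-rich repeats and O for other folds. Attachment of the small protein Nedd8 switches a cullin on, and the COP9 signalosome removes it.

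The libraries held 679250 (NaKtide 5) to 2979505 (PNx 1) counts, a low depth, so that 31 of the 86 genes had fewer than 100 counts over all 24 libraries and 16 had more than 1000. Levels below are CPM, that is, counts relative to the library size after TMM scaling. Before the members are described, some libraries have to be set apart. Although the tissue is labelled visceral fat, the summed level of 10 adipocyte genes was 99 to 1011 CPM in 22 of the 24 libraries and 4698 and 5804 CPM in NaKtide 6 and PNx 6. Skeletal muscle genes summed to 3920 CPM in NaKtide 6 and to at most 30 CPM in any PNx or PNx+NaKtide library. Lists of 10 genes each were also summed for epididymis and for testis germ cells. The epididymis list was at 534 to 1783 CPM in Control and at 20, 171 and 504 CPM in PNx 1, 2 and 3, 95.1 CPM in PNx 6 and 18.7 CPM in NaKtide 6. The testis list reached 1038, 1018 and 1215 CPM in PNx 1, 2 and 3, against 75.4, 120 and 309 CPM in PNx 4, 5 and 6 and 78.7 to 549 CPM in the Control libraries. It was also high in PNx+NaKtide 2, 3 and 4 (640, 839 and 917 CPM) and at 35.3 to 55.4 CPM in the other 3 libraries of that group. Every gene of the testis list had counts in the PNx group.

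The stretches of DNA before 4 members described below, and the one between Fbxo44 and Fbxo2, are printed first, since their levels are referred to throughout. They were read from RefSeq on GRCm38.p6, where 65 of the 86 members had a window, and each is written 5′ to 3′ on the strand named. The windows of Cul3 and Fbxl16 do not abut the GENCODE gene models used here. Those models start at chr1:80340480 (minus strand) and chr17:25809085. Capitals mark matches, on either strand, to 6 short motifs, which are the CCAAT box, the ETS motif CCGGAAG, the NRF1 motif GCGCATGC, the cyclic AMP element TGACGTCA, the E-box CACGTG and the core promoter letters TATAAA, none of which overlapped another where printed. Fbxl16 and Fbxw17 are shown for genes that were high in PNx 1 to 3, Cul3 for the cullin with the lowest p, and Fbxo39 for a gene with 2 matches.
Cul3 (chr1:80340691-80340940, minus strand): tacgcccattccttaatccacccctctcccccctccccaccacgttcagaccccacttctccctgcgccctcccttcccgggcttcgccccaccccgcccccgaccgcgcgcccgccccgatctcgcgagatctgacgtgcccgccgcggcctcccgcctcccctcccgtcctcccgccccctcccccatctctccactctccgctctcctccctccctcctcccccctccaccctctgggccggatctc
Fbxl16 (chr17:25808211-25808460, plus strand): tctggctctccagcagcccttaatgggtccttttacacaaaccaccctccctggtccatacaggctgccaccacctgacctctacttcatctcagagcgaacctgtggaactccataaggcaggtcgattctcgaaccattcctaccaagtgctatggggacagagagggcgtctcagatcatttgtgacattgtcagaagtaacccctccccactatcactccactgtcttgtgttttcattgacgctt
Fbxo39 (chr11:72314194-72314443, plus strand): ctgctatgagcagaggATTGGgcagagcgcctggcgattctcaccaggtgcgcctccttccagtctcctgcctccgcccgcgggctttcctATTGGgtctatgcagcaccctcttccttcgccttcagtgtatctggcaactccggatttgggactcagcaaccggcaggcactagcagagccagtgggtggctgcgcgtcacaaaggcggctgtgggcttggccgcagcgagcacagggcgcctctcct
Fbxw17 (chr13:50417614-50417863, plus strand): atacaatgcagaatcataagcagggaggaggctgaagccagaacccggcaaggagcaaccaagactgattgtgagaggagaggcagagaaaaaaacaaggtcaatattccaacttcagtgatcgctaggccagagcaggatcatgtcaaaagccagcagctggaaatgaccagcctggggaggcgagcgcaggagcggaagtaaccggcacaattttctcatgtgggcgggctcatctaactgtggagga
Fbxo44-Fbxo2 stretch (chr4:148160483-148160620, plus strand): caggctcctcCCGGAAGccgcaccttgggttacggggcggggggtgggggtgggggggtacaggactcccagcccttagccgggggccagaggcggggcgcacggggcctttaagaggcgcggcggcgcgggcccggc
The window of Cul3 was 73.2% G and C and held no match. In that of Fbxo39 the CCAAT box occurred in the reverse orientation at positions -234 and -159 from the RefSeq start, and the stretch shared by Fbxo44 and Fbxo2 held the ETS letters 128 bases before Fbxo2. A CCAAT box was present in 33.8% of all 32851 RefSeq windows and in 11 of 52 tested members with a window, the ETS letters in 6.91% and in 6, NRF1 in 2.26% and in 1, the cyclic AMP element in 1.55% and in 1, the E-box in 6.02% and in 3, and TATAAA in 12.4% and in 1. These are matches of letters only.

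Over the 24 libraries the members took 61276 counts, and few of them took most. Fbxl12 and Fbxl2 together had 34% of these counts and the 8 highest members (Fbxl12, Fbxl2, Fbxo46, Cul1, Fbxo22, Cul5, Fbxo7 and Fbxw2) had 61.6%. Per kilobase of exon, Fbxl2 was highest, at 2231 counts per kb, followed by Fbxl12 at 2145, whereas Fbxo40, a receptor for the insulin receptor substrate IRS1 in muscle, was lowest of the tested members at 2.18. At the other end, a run of 14 Fbxw genes on chromosome 9 (chr9:109139447-109790670, GRCm38) was nearly silent: 7 had no count, 12 had 2 counts or fewer, and the 14 together had 97. These genes are close copies of each other, and how reads shared between copies were counted is not given in the sources used here.

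Of the 8 highest members, 7 overlap a gene on the opposite strand. Exons of 22 members shared at least 1 base with such a gene, and these 22 held 72.4% of the member counts, with a median of 247 counts per kb for the 20 that were tested against 42.9 for the 50 tested members without overlap. In the whole table, 9103 of the 54232 genes had such an overlap and held 79.9% of all counts. In 11 of the 23 member and partner pairs the partner had more counts. The widest gaps in counts were at Fbxw8, the partner of Cul7 in its ligase, with 614 counts against 36599 for Gm9754 and 1845 shared bases, at Fbxw4, a gene needed for limb growth, with 750 against 18055 for Gm17018, and at Fbxw9, with 195 against 15047 for A230103J11Rik. Fbxo24 had 1425 counts against 12193 for Gm36266, and Fbxo22 had 2387 against 5844 for Nrg4, a secreted factor of fat. The libraries were made with a stranded kit, but the strand setting of the counting is not given in the sources used here, so reads of a member and of its opposite partner may not be separated, and values of the 22 genes are uncertain to that degree.

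**Figure D1:**
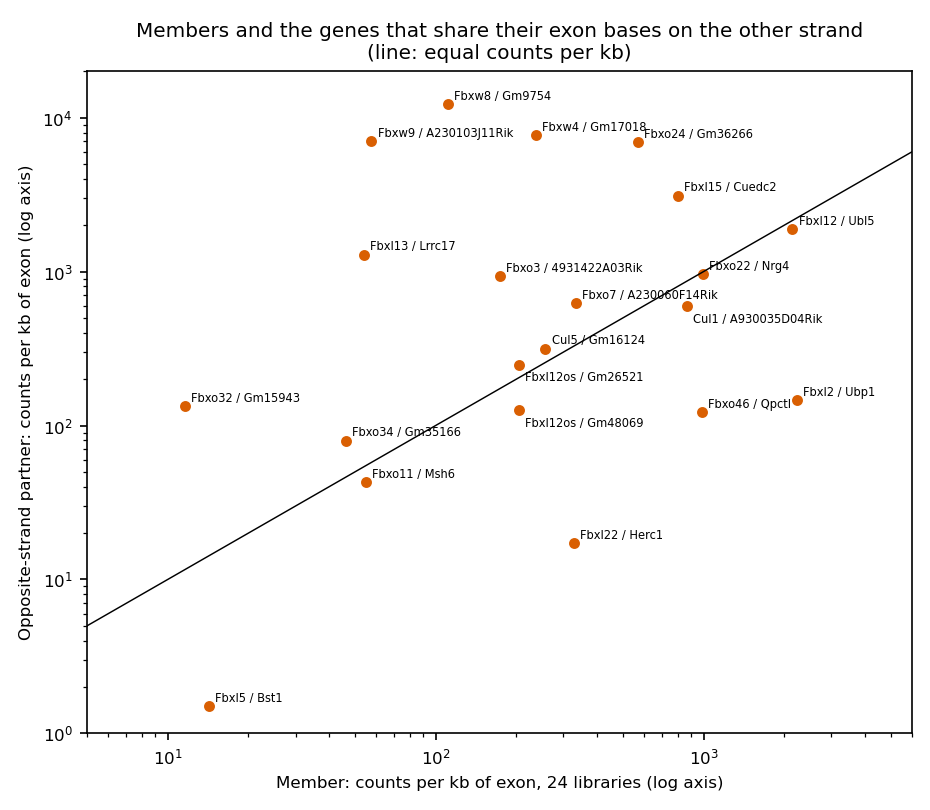
Counts per kb of exon over the 24 libraries for each member (horizontal, log axis) and its opposite-strand partner (vertical, log axis), with the line of equality. Fbxw8, Fbxw9, Fbxw4 and Fbxo24 lie far above the line, and Fbxl2 and Fbxo46 below it.

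The cullins were all detected. Cul1, the SCF scaffold, had the most counts (3498, or 866 per kb), followed per kb by Cul5 (257), Cul3 (138) and Cul4b (97.9), and Cul2 was the lowest (50 counts, 11.9 per kb). Cul2 and Cul5 work with elongins B and C, Cul4a and Cul4b with Ddb1, Cul3 with BTB proteins such as Keap1, and Cul7 with Fbxw8. Cul3 was the cullin whose PNx libraries differed most evenly from Control.

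Cul3 (chr1:80264923-80340480, minus strand), which shares no exon base with a gene on the opposite strand, had 7.43, 4.5, 2.96, 5.25, 12.3 and 13.4 CPM in Control 1 to 6 and 32.3, 16.6, 40.4, 7.85, 7.72 and 17.4 CPM in PNx 1 to 6. In NaKtide 1 to 6 it had 13.1, 9.29, 12.6, 3.63, 5.91 and 13.6 CPM, and in PNx+NaKtide 1 to 6, 10.5, 9.47, 15.7, 11.5, 16.6 and 7.47 CPM. All 6 PNx libraries were above the Control mean, but PNx 4 and 5 lay inside the Control range and the groups overlapped. The log2 fold change of PNx against Control was 1.43 ± 0.46 (SE), with an adjusted p of 0.133 in edgeR's quasi-likelihood test with Benjamini-Hochberg adjustment over all genes. Without PNx 1 to 3 it was 0.48. For PNx+NaKtide against PNx it was -0.79 ± 0.45 (adjusted p = 0.429), with all 6 PNx+NaKtide libraries below the PNx mean.

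Cul1 (chr6:47453398-47526139) had 46.9, 63.8 and 93.6 CPM as its lowest, median and highest Control values. In PNx 1 to 3 it reached 134, 182 and 126 CPM, the 3 highest values of all 24 libraries, and in PNx 4 to 6 it was at 58.1, 53.5 and 31.3 CPM. The difference of the group means was within the spread (log2 fold change 0.55 ± 0.37, adjusted p = 0.325, edgeR) and was -0.53 when PNx 1 to 3 were left out. Cul7 went the other way in the same libraries, with 2.46, 2.83 and 6.56 CPM in PNx 1 to 3, each below the lowest Control value of 9.37 CPM, but 34.3 CPM in PNx 6, above the highest of 18.3 CPM. The fitted difference of Cul7 was -0.17 ± 0.47 (adjusted p = 0.832, edgeR).

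Cul9, a large cullin known to bind p53, had 4.32 to 12 CPM in Control and 3.93 to 18.1 CPM in PNx, with 5 of 6 PNx libraries above the Control mean (log2 fold change 0.73 ± 0.35, adjusted p = 0.197, edgeR). Cul4a ranged from 0.592 to 7.89 CPM in Control and from 0.785 to 25.7 CPM in PNx, where the highest value was that of PNx 6, and its log2 fold change was 1.22 ± 0.61 (adjusted p = 0.203, edgeR). Cul4b, its X-linked paralogue, stood at a median of 12 CPM in Control and 8.19 CPM in PNx (-0.38 ± 0.38, adjusted p = 0.518, edgeR). Cul5 had medians of 53.3 and 40.7 CPM (-0.33 ± 0.30, adjusted p = 0.463, edgeR), and Cul2 medians of 1.18 and 1.29 CPM, levels of a few reads per library (adjusted p = 0.512, edgeR). The ranges of the groups overlapped for every one of these 5 genes.

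**Figure D2:**
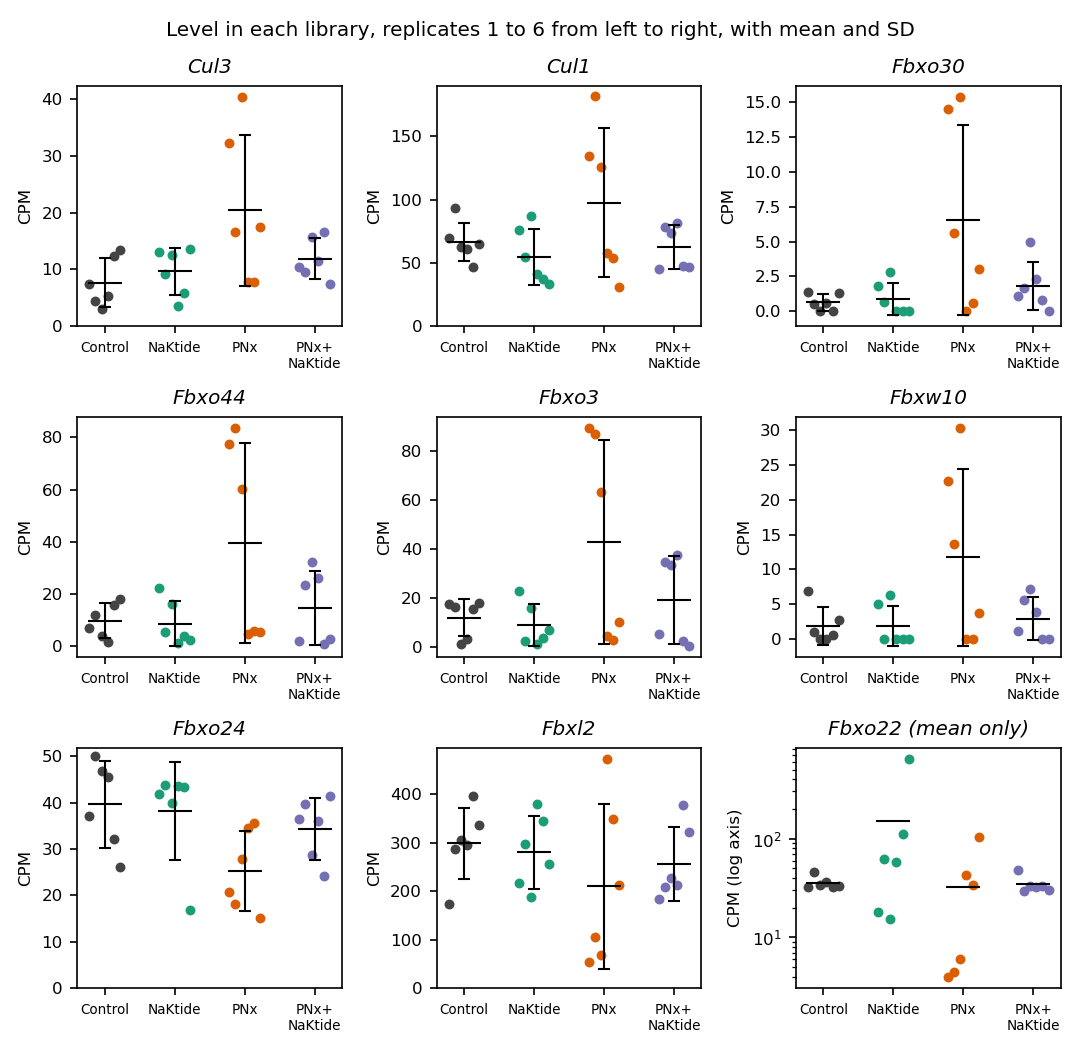
CPM of 9 members in each of the 24 libraries by group, with the mean and SD of each group as bars (Fbxo22 on a log axis with its mean only). PNx 1 to 3 stand above the rest of their group for Fbxo3 (63.1 to 89.2 CPM) and Fbxo44 (60.3 to 83.6 CPM) and below it for Fbxl2 (53.7 to 105 CPM), and NaKtide 6 stands at 641 CPM for Fbxo22.

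The effect of nephrectomy on the whole set was examined next, by comparing PNx with Control. No member passed an adjusted p of 0.1, against 20 genes of the 26116 tested (0.0766%). At an unadjusted p under 0.05, 14 of the 70 tested members (20%) were higher in PNx, namely Cul3, Fbxl16, Fbxo2, Fbxo3, Fbxo15, Fbxo30, Fbxo34, Fbxo38, Fbxo39, Fbxo43, Fbxo44, Fbxw8, Fbxw10 and Fbxw17, against 18.5% of all genes, and 2, among them Fbxo24, were lower (2.86%), against 6.88%. The share of higher members was thus close to that of all genes. The median log2 fold change was 0.72 over the members and 0.36 over all genes tested, and 43 of the 70 were above 0. By family, the medians were 0.64 for the cullins, 0.90 for Fbxo, -0.03 for Fbxl and 0.89 for Fbxw genes. The 50 members without overlap had a median of 0.89, and the 20 with overlap -0.13, beside 0.51 and 0.04 for all genes of the same kinds. No test was made between families.

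These counts moved with the libraries set apart above. Without PNx 1 to 3, 3 of 66 tested members were higher and 2 lower at p under 0.05, against 6.26% and 4.83% of all genes, and the median over the members was 0.05. Without NaKtide 6 and PNx 6, 16 of 69 were higher and 6 lower, against 23.5% and 10.8%. In DESeq2, 25 of the 70 members passed an adjusted p of 0.1, all of them higher in PNx, beside 29.7% of all genes. That share counts both directions, with 6861 of the 7764 genes higher in PNx. With DESeq2's size factors in edgeR, 27 members had an unadjusted p under 0.05 and all 27 were higher, beside 34.9% of all genes that were higher, and this scaling moved the median of all genes from 0.36 to 0.76. The part that testis transcripts or the adipocyte content of single libraries had in the result was not tested.

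**Figure D3:**
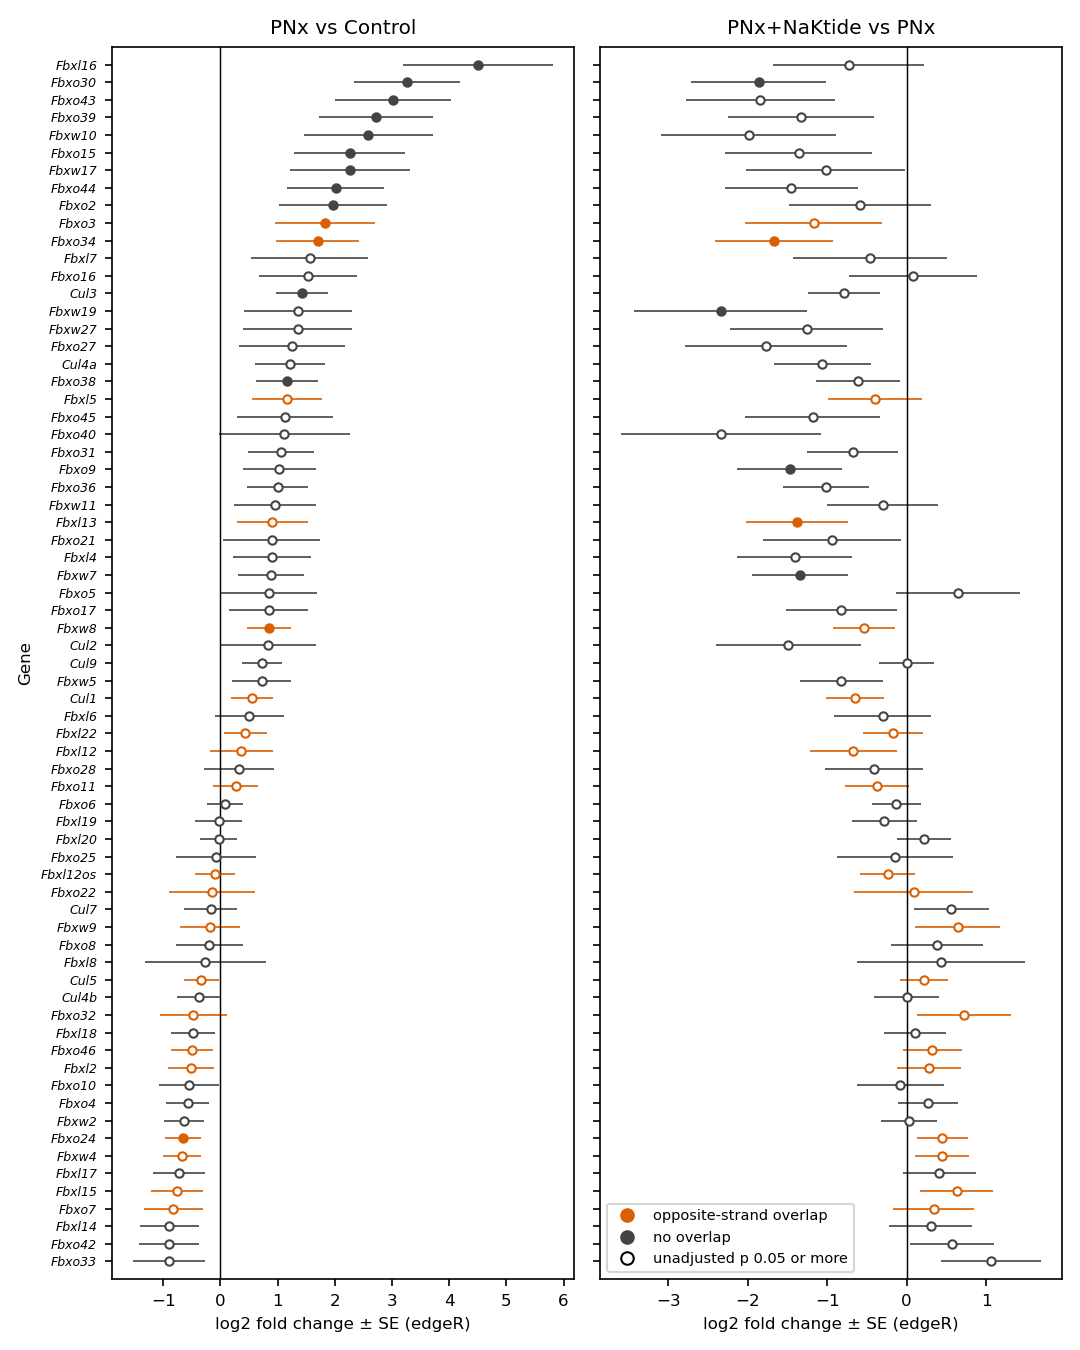
Fitted log2 fold changes with SE of 69 of the 70 tested members for PNx against Control and for PNx+NaKtide against PNx (horizontal axis), orange for members with opposite-strand overlap and filled for an unadjusted p under 0.05. In the first comparison 43 of those drawn lie above 0, in the second 23, and the values of Fbxl16 and Fbxo40, each at 0 in one whole group, depend on the prior count.

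Each PNx library was also set against the range of the 6 Control libraries. PNx 1 was above every Control library for 32 of the 70 members and below every one for 22, against 37% and 28.9% of all genes. For PNx 2 the counts were 23 and 22 (all genes 34.1% and 28.4%), and for PNx 3 they were 32 and 20 (36.2% and 25.8%). In PNx 4 only 7 and 10 members lay outside the Control range (13.1% and 13.5%), and in PNx 5 only 5 and 4 (10.3% and 9.72%), so that these 2 nephrectomy libraries were near Control in most members. PNx 6, with its high adipocyte genes, had 28 above and 14 below (32.9% and 19.5%). PNx 1, 2 and 3 were the 3 highest of all 24 libraries for 10 members (14.3%; Fbxo3, Fbxo44, Cul1, Fbxo34, Fbxw17, Fbxo30, Fbxo43, Fbxl12, Fbxw10 and Fbxw27), against 16.4% of all genes. They were the 3 lowest for 8 (11.4%; Fbxl17, Fbxo22, Fbxl2, Fbxw2, Cul7, Fbxw4, Fbxo46 and Fbxl18), against 7.95%.

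**Figure D4:**
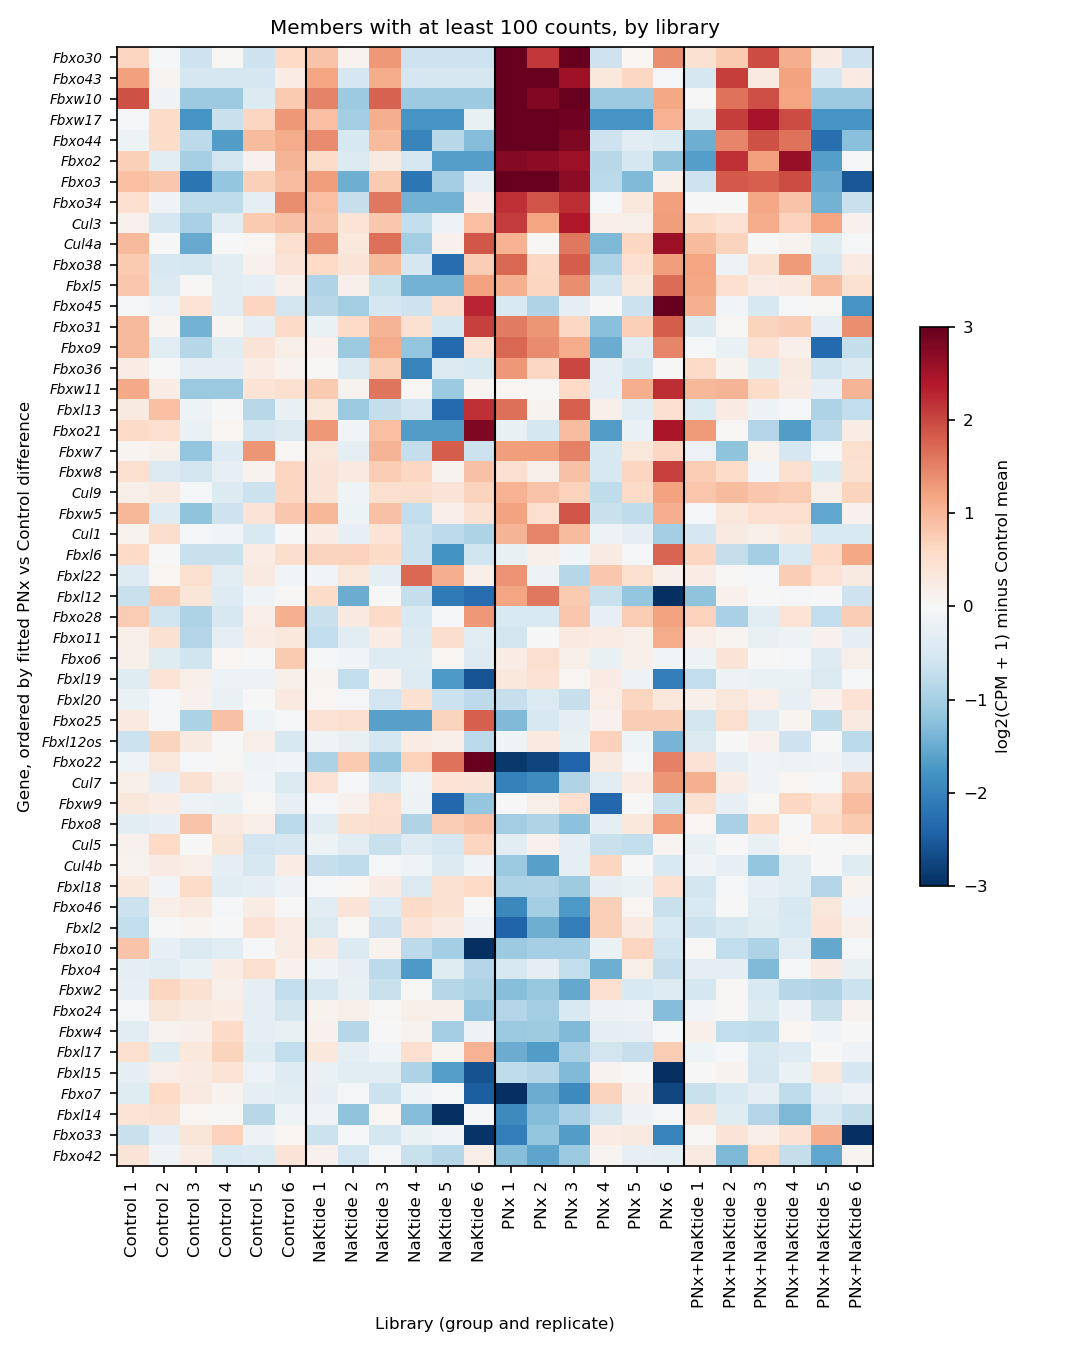
Level of members with at least 100 counts in each library, as log2(CPM + 1) minus the Control mean, libraries in columns by group and members in rows ordered by their fitted difference between PNx and Control. Colours end at 3 on either side of 0; PNx 1 to 3 stand out at both ends of the order, NaKtide 6 and PNx 6 differ strongly in other members such as Fbxo22 and Fbxl12, and PNx 4 and 5 lie nearer to the Control columns.

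Fbxo3, Fbxo44, Fbxw17, Fbxw10 and Fbxo2, which were singled out after their values were seen, were high in PNx 1 to 3. Fbxo3 (chr2:104027721-104063240), which overlaps 4931422A03Rik, had 89.2, 86.8 and 63.1 CPM in PNx 1 to 3 and 4.71, 2.97 and 10.2 CPM in PNx 4 to 6, against 1.18 to 18.1 CPM in Control. In PNx+NaKtide 2 to 4 it had 34.6, 33.6 and 37.6 CPM, and in libraries 1, 5 and 6 of that group 5.54, 2.5 and 0.679 CPM. Both nephrectomised groups were thus split in the same way as the testis list. The testis list of NaKtide 3 summed to 684 CPM. It had 16.1 CPM of Fbxo3, 16.1 of Fbxo44, 6.28 of Fbxw17, 6.28 of Fbxw10 and 2.79 of Fbxo2, all inside the Control range. Within the NaKtide group, however, libraries 1 and 3 had the highest testis lists (522 and 684 CPM) and the highest levels of these genes. Fbxo3 had 23 and 16.1 CPM there and 1.21 to 7.11 CPM in the other NaKtide libraries. In Control 3 and 4, with the lowest Control testis lists (78.7 and 87.5 CPM), Fbxo3 had 1.18 and 3.5 CPM, against 15.4 to 18.1 CPM in the other Control libraries. The log2 fold change of Fbxo3 for PNx against Control was 1.83 ± 0.88 (adjusted p = 0.194, edgeR), and without PNx 1 to 3 it was -1.03.

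Fbxo44 and Fbxo2 belong with Fbxo6 to a family of related F-box proteins, of which Fbxo2 and Fbxo6 recognise sugar chains on glycoproteins. The 3 genes lie side by side on chromosome 4. Fbxo44 (chr4:148152800-148160482, minus strand) and Fbxo2 (chr4:148160621-148166424, plus strand) start 138 bases apart, across the stretch printed above. Fbxo44 had 77.6, 83.6 and 60.3 CPM in PNx 1 to 3 and 4.71, 5.94 and 5.66 CPM in PNx 4 to 6, with 1.75 to 18.1 CPM in Control. Fbxo2 had 20.2, 19.4 and 17.7 CPM in PNx 1 to 3 and 0.785, 1.19 and 0.377 CPM in PNx 4 to 6, with 0.592 to 5.35 CPM in Control. In PNx+NaKtide 2 to 4, Fbxo44 had 23.4, 32.1 and 26.1 CPM and Fbxo2 had 13.4, 6.43 and 18.4 CPM, above every Control library. Fbxo6, next to Fbxo44 on its other side, did not share this split: it had 13.3, 16.2 and 12.9 CPM in PNx 1 to 3 and 9.42, 12.5 and 10.6 CPM in PNx 4 to 6 (log2 fold change 0.08 ± 0.31, adjusted p = 0.881, edgeR). The fitted differences were 2.02 ± 0.85 for Fbxo44 (adjusted p = 0.16) and 1.97 ± 0.94 for Fbxo2 (adjusted p = 0.189), and without PNx 1 to 3 they were -0.86 and -1.69 (edgeR).

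Fbxw17 had 27.1, 33.1 and 24.7 CPM in PNx 1 to 3 and 0, 0 and 6.04 CPM in PNx 4 to 6, with 0 to 7.36 CPM in Control. Fbxw10 had 22.7, 13.7 and 30.3 CPM in PNx 1 to 3, 0, 0 and 3.77 CPM in PNx 4 to 6, and 0 to 6.96 CPM in Control. In PNx+NaKtide 2 to 4, Fbxw17 had 13.4, 17.9 and 12.3 CPM, above every Control library, whereas Fbxw10 had 5.57, 7.14 and 3.84 CPM, of which libraries 2 and 4 lay inside the Control range. Their log2 fold changes of 2.26 ± 1.05 and 2.59 ± 1.13 (adjusted p = 0.185 and 0.167, edgeR) became -0.55 and -0.46 without PNx 1 to 3. Fbxl16 was not counted in any Control library, nor in PNx 4 to 6, and had 3.45, 2.83 and 2.02 CPM in PNx 1 to 3 and 2.23, 2.14 and 0.768 CPM in PNx+NaKtide 2 to 4. A count of 0 allows up to 3 counts in a library, which is 1.27 to 1.95 CPM of unscaled reads in the Control libraries, so the gene was not detectable rather than absent there.

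**Figure D5:**
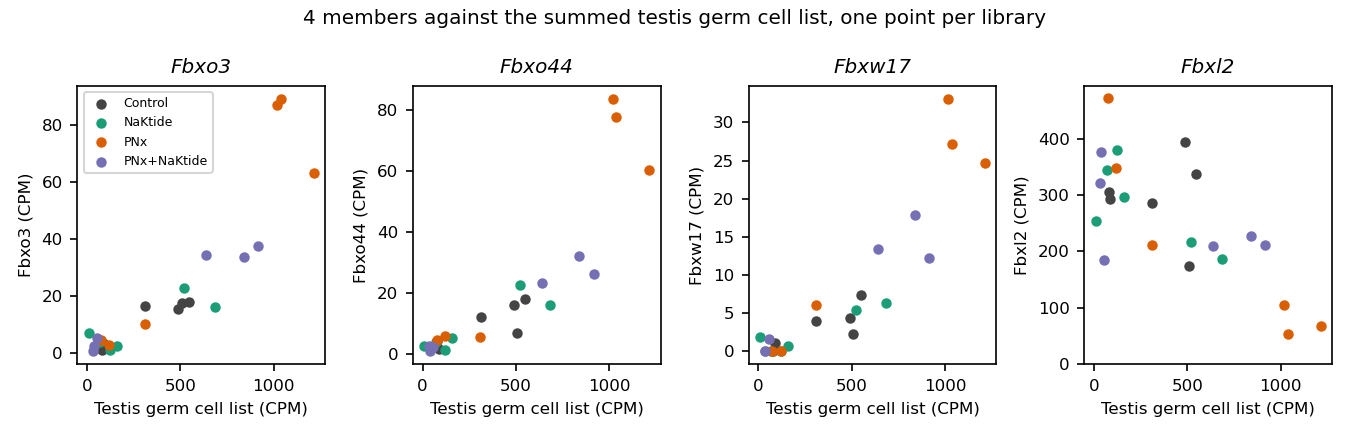
CPM of Fbxo3, Fbxo44, Fbxw17 and Fbxl2 (vertical axis) against the summed CPM of the 10 testis germ cell genes (horizontal axis), 1 point per library, coloured by group. PNx 1 to 3 and PNx+NaKtide 2 to 4 lie to the right (640 CPM or more), and are the highest libraries of their groups for Fbxo3, Fbxo44 and Fbxw17. NaKtide 3, at 684 CPM on the horizontal axis, lies inside the Control range for these 3 genes. Within their group, NaKtide 1 and 3 are the highest libraries for them.

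The members of lowest p with a mean of at least 1 CPM were, beside Cul3, Fbxo30, Fbxo43 and Fbxo39 for higher values in PNx. Fbxo30, also known as MUSA1 and studied for its part in muscle mass, had 0 to 1.39 CPM in Control and 14.5, 5.65, 15.4, 0, 0.594 and 3.02 CPM in PNx 1 to 6. Its log2 fold change was 3.26 ± 0.93 (adjusted p = 0.128, edgeR), and 0.89 without PNx 1 to 3. Fbxo43 (Emi2), which holds the egg in meiosis by blocking the anaphase-promoting complex, had 0 to 2.32 CPM in Control and 10.8, 11.7, 7.32, 0.785, 1.19 and 0.377 CPM in PNx 1 to 6 (3.02 ± 1.01, adjusted p = 0.134, edgeR). Fbxo39 had 0 to 1.39 CPM in Control and 4.93, 1.21, 10.3, 0.785, 0.594 and 1.13 CPM in PNx (2.72 ± 1.00, adjusted p = 0.141, edgeR). The high values were those of PNx 1 and 3, and for Fbxo30 and Fbxo43 also of PNx 2, the other PNx libraries were at the level of a few reads, and the groups overlapped.

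Among the members with lower values in PNx, those of low p described here are Fbxo24, Fbxw4 and Fbxw2. Fbxo24 had 26.1, 41.3 and 50 CPM as lowest, median and highest in Control and 15.1, 24.2 and 35.6 CPM in PNx, with all 6 PNx libraries below the Control mean (-0.65 ± 0.32, adjusted p = 0.196, edgeR). Its opposite partner Gm36266, with many more reads, went the other way in the same libraries, at 780, 1048 and 669 CPM in PNx 1 to 3 and at most 185 CPM in Control. Fbxw4 had 16.7 to 32.1 CPM in Control and 9.36, 9.69, 7.82, 17.3, 17.8 and 20.4 CPM in PNx (-0.67 ± 0.34, adjusted p = 0.21, edgeR). Gm17018, its opposite partner with many more reads, was low in the same libraries, at 67.3, 171 and 107 CPM in PNx 1 to 3. It had 446 to 710 CPM in Control and 795, 613 and 342 CPM in PNx 4 to 6. Whether reads of Gm17018 entered the Fbxw4 counts was not tested. Fbxw2 had 36.8 to 96.6 CPM in Control and 25.1, 27.5, 20.7, 86.4, 45.1 and 47.2 CPM in PNx (-0.64 ± 0.35, adjusted p = 0.237, edgeR). For both, PNx 1 to 3 were below every Control library and PNx 4 to 6 were within the Control range.

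Among the members with the most counts, Fbxl2 had 174, 299 and 395 CPM as lowest, median and highest in Control, 53.7, 105 and 67.6 CPM in PNx 1 to 3 and 473, 349 and 212 CPM in PNx 4 to 6. Fbxo46 showed the same split, with 34.5, 66.2 and 40.4 CPM in PNx 1 to 3 and 222, 142 and 84.9 CPM in PNx 4 to 6, against 85.9 to 165 CPM in Control. Fbxl12 went the other way, with 376 to 648 CPM in PNx 1 to 3 and 137, 96.2 and 22.3 CPM in PNx 4 to 6, against 136 to 368 CPM in Control. Fbxo7, a gene mutated in a form of early parkinsonism, had 6.41, 23.8, 17.7, 110, 76.6 and 9.43 CPM in PNx 1 to 6, and 52.9 to 105 CPM in Control, so that PNx 6 joined the low libraries. None of the 4 passed p under 0.05 (adjusted p = 0.402, 0.369, 0.674 and 0.291, edgeR), and the PNx ranges spanned those of Control.

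F-box genes of known role that are widely studied were mostly low in these libraries. Fbxw7, the receptor for cyclin E, Myc and Notch, had Control, NaKtide, PNx and PNx+NaKtide medians of 2.73, 2.8, 6.08 and 2.35 CPM. Fbxo32 (atrogin-1), a marker of muscle wasting, had medians of 1.93, 2.61, 1.29 and 2.26 CPM. Fbxw11 (β-TrCP2) had medians of 1.68, 1.31, 1.75 and 2.73 CPM, and Fbxl5, the sensor of cellular iron, 1.5, 0.574, 3.96 and 2.75 CPM. Fbxo31, a receptor for cyclin D1, had 3.5, 5.07, 7.82 and 4.53 CPM, and Fbxl4, which is needed for mitochondrial DNA upkeep, 1.43, 1.34, 2.24 and 0.958 CPM. Fbxo5 (Emi1), a cell cycle relative of Fbxo43, was at medians of 0.296 to 1.39 CPM in the 4 groups. For each of these 7 the ranges of PNx and Control overlapped.

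Whether NaKtide expression altered the members in nephrectomised mice was addressed by comparing PNx+NaKtide with PNx, a comparison that shares the PNx libraries with the one above. No member and no gene passed an adjusted p of 0.1 (0% of all genes). At an unadjusted p under 0.05, no member was higher, against 4.07% of all genes, and 6 were lower (8.57%: Fbxo9, Fbxw7, Fbxo34, Fbxo30, Fbxl13 and Fbxw19), against 8.6%. The median log2 fold change was -0.39 over the members (-0.34 with Fbxo40, at 0 in all PNx+NaKtide libraries, set at its bound) and -0.37 over all genes. Without PNx 1 to 3, 5 of 66 members were higher and 1 lower, against 8.04% and 7.19% of all genes. Without NaKtide 6 and PNx 6, 4 of 69 were higher and 9 lower, against 7.78% and 12%. In DESeq2, 7 members passed an adjusted p of 0.1, all lower in PNx+NaKtide (Cul1, Cul3, Fbxl13, Fbxo9, Fbxo34, Fbxo36 and Fbxw7), beside 5.8% of all genes. Here too the share counts both directions, with 271 of the 1514 genes higher in PNx+NaKtide.

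Fbxo30 had 1.11, 1.67, 5, 2.3, 0.832 and 0 CPM in PNx+NaKtide 1 to 6, against a PNx median of 4.34 CPM (-1.86 ± 0.85, adjusted p = 0.381, edgeR). Without PNx 1 to 3 the difference was 0.44. Fbxo34 had 0 to 5 CPM in PNx+NaKtide and 1.57 to 11.4 CPM in PNx (-1.67 ± 0.74, adjusted p = 0.373, edgeR). Fbxo9 had 3.87, 3.34, 5.72, 4.61, 0 and 2.04 CPM in PNx+NaKtide and 15.5, 12.5, 9.84, 0.785, 2.97 and 12.8 CPM in PNx (-1.47 ± 0.66, adjusted p = 0.376, edgeR). Fbxw7 had 0.557 to 4.07 CPM in PNx+NaKtide and 1.57 to 9.34 CPM in PNx (-1.34 ± 0.60, adjusted p = 0.376, edgeR). In each of the 4 all PNx+NaKtide libraries lay below the PNx mean, while PNx 4 and 5 were as low as they were.

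On the other side, Fbxo33, Fbxo24 and Fbxl15 were among the members of lowest p with higher values in PNx+NaKtide, and no such p was under 0.05. Fbxo33 had 17.2, 22.3, 19.3, 23, 36.6 and 0 CPM in PNx+NaKtide and 3.2, 6.86, 4.54, 19.6, 20.2 and 3.4 CPM in PNx (1.06 ± 0.63, adjusted p = 0.439, edgeR), so that 1 PNx+NaKtide library without a count stood apart. Fbxl15, a receptor for the ligase Smurf1, had 22.9 to 41.6 CPM in PNx+NaKtide and 2.26 to 35.3 CPM in PNx (0.63 ± 0.46, adjusted p = 0.491, edgeR). Fbxo24 had 24.1 to 41.4 CPM in PNx+NaKtide, against 15.1 to 35.6 CPM in PNx (0.45 ± 0.32, adjusted p = 0.485, edgeR). Those ranges overlapped as well.

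In sham mice, NaKtide against Control gave 1 member at an unadjusted p under 0.05, Fbxo22, against 3.95% of all genes, and 0% of all genes passed the adjusted p. Fbxo22, a receptor that acts on the histone demethylase KDM4A, had 18, 62.3, 15.4, 58.1, 112 and 641 CPM in NaKtide 1 to 6 and 32.5 to 45.5 CPM in Control. The value of NaKtide 6 decided the difference: the log2 fold change was 2.08 ± 0.77 (adjusted p = 1, edgeR) and 0.55 ± 0.62 without that library. Nrg4, on the opposite strand, had 248 CPM in NaKtide 6 and at most 227 CPM in any other library. PNx+NaKtide against NaKtide gave Fbxo22 and Fbxo40 (4.09% of all genes), where Fbxo40 rested on 3.88 CPM in NaKtide 6, the library with the skeletal muscle genes, and was at 0 in the others of both groups. The test of whether the NaKtide effect differed between nephrectomised and sham mice gave Fbxl15, Cul4a and Fbxo40 at p under 0.05, against 9.27% of all genes, and none past the adjusted p (lowest 0.492 among the members).

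Other genes of the pathway, chosen by function and not by symbol, were 61 in the table, of which 60 were tested. For PNx against Control 16 of the 60 were higher at an unadjusted p under 0.05 (26.7%) and 2 lower (3.33%), with a median of 0.65, beside 18.5% and 6.88% and a median of 0.36 for all genes. For PNx+NaKtide against PNx, 2 were higher (3.33%) and 8 lower (13.3%), beside 4.07% and 8.6% of all genes. None passed an adjusted p of 0.1 (lowest 0.13 and 0.357, edgeR). By role, 3 of 7 core and adaptor genes, 2 of 11 of the Nedd8 cycle, 2 of 10 of the COP9 signalosome, 1 of 5 helper ligases, 1 of 4 genes of exchange and inhibition, and 7 of 23 receptors were higher in PNx. The lower ones were 1 gene of the Nedd8 cycle and 1 receptor. These counts are from the main fit only, and how they move without PNx 1 to 3 was not examined for this list. Skp1a, the adaptor of the F-box proteins, had 6.42 to 14.7 CPM in Control and 7.07 to 27.5 CPM in PNx (1.01 ± 0.40, adjusted p = 0.149, edgeR), and Cand1, which exchanges the receptors on Cul1, had 2.92 to 7.89 CPM and 6.28 to 18.2 CPM (1.03 ± 0.46, adjusted p = 0.172, edgeR). Btrc (β-TrCP1), the paralogue of Fbxw11, was lower in 5 of 6 PNx libraries than the Control mean, at 47.8 to 516 CPM against 320 to 520 CPM (-1.07 ± 0.47, adjusted p = 0.17, edgeR). Rbx1, the RING subunit, had 1.75 to 11.4 CPM in Control and 0.404 to 20.8 CPM in PNx (0.24 ± 0.63, adjusted p = 0.825, edgeR).

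The summed level of the 86 genes was 1441 ± 193 CPM (SD, n = 6) in Control, 1366 ± 162 CPM in NaKtide, 1451 ± 228 CPM in PNx and 1291 ± 117 CPM in PNx+NaKtide. The ranges of all 4 groups overlapped. The sum is set mainly by the few members with opposite-strand overlap.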

How the data were processed

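RNA from visceral fat was sequenced in 24 libraries, 6 in each of 4 groups. The authors trimmed reads with Trimmomatic 0.38, aligned them to GRCm38 with HISAT2 2.1.0 and deposited raw counts per gene (GenomicAlignments) and FPKM values; their DESeq2 was 1.20.0. The deposited FPKM served as an alternative only. Genes were matched to GENCODE M21 by identifier (99.9% matched). Genes with more than 10 counts in all were fitted over the 24 libraries with edgeR 4.0.16 (R 4.3.3; TMM, robust quasi-likelihood), with Benjamini-Hochberg adjustment over 26116 genes and a threshold of 0.1; 5 contrasts were tested. The alternatives used limma 3.58.1 and DESeq2 1.42.0. Named genes were all cullins, F-box genes of known role, the 8 with most counts, and the extremes per kb. In each main contrast the 4 higher and 4 lower members of lowest p (mean level over the libraries 1 CPM or more) were named too. Some others are said to be chosen after their values were seen. Fbxl16, Fbxw9 and the pathway genes Skp1a, Cand1, Btrc and Rbx1 were also named outside this rule. Of 1 member the values are not reported here, although it is in every count. The members and lists were chosen with earlier results of these data known. The labels number the libraries within a group and do not say that these come from separate mice, so p-values measure the spread between libraries. Depth was 679250 to 2979505 counts per library, and intervals from counts cover counting error only. On simulated data for PNx against Control (24958 genes, 200 changed), edgeR recovered 79% of 8-fold and 44% of 4-fold changes with 6.82% false calls. DESeq2 recovered 85% and 65% with 26.5%. These rates were not split by count level, so they do not show what is recovered among members with few counts. Whether they hold for a group divided within itself, as the PNx libraries were, was not tested.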

Additional observations from a re-analysis of the deposited data

Results flagged for a closer look

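In 11 of 120 group-wise checks of named members, 1 library stood apart from the other 5 of its group by more than Dixon's 95% limit. Chance gives about 1 in 20 only where values are normally distributed, which was not tested for these CPM values. Several of them are small numbers of reads, so the 11 cannot be compared with that rate. The checks did not cover every named member. Fbxw8, not among the 11, had 41.1 CPM in PNx 6 and 6.28 to 17.7 CPM in the other PNx libraries. NaKtide 6, the library with the most skeletal muscle transcripts, was the one that stood apart for Fbxo22 (641 CPM), Cul5 (79.5 CPM), Cul2 (3.23 CPM) and Fbxo24 (16.8 CPM, the lowest of its group). Fbxo22 was high in Control 2 (45.5 CPM) and in PNx+NaKtide 1 (48.7 CPM). Cul2 was high in PNx 6 (4.91 CPM) and in PNx+NaKtide 3 (2.14 CPM), each a small number of reads. Fbxo43 stood at 2.32 CPM in Control 1, Fbxw7 at 8.02 CPM in Control 5 and Fbxo39 at 5.37 CPM in PNx+NaKtide 4, all of them highest in their groups. Tissue and library make-up moved with NaKtide 6 and their part in these values was not tested.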

How the results depend on the processing

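The count of members past the adjusted p of 0.1 depended on the tool and the scaling. For PNx against Control it was 0 in edgeR but 25 of 70 in DESeq2 (beside 29.7% of all genes), 26 in edgeR with DESeq2's size factors (33.3%), 6 of 41 after edgeR's filterByExpr (17.9%) and 47 in limma voom with sample weights (63.5%), of which 26 were higher and 21 lower. For PNx+NaKtide against PNx it was 7 in DESeq2 (5.8%) and 30 in voom (42.4%), 16 higher and 14 lower. Voom also gave 18 for the interaction (25.2%), 10 higher and 8 lower. At an unadjusted p under 0.05 the 16 members of PNx against Control (25.4% of all genes) became 27 in DESeq2 (33.9%), 27 with its size factors (38.7%) and 46 in voom (61.1%, with 26 members higher and 20 lower). The 6 of PNx+NaKtide against PNx (12.7%) became 17 (21.6%), 17 (25.1%) and 33 (44.9%, with 18 members higher and 15 lower), and 12 with limma on log2(FPKM + 1) (18.5%). The median of PNx against Control was 1.22 in DESeq2, beside 0.79 for all genes, and 0.15 after filterByExpr, where it was below the 0.22 of all genes.

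Leaving out 1 library at a time gave 0 to 25 members past the adjusted p for PNx against Control, with 25 without PNx 4, 11 without PNx 5 and 8 without PNx 6, beside 33.2%, 23.2% and 14.8% of all genes. The unadjusted counts ran from 6 (without Control 3) to 29 (without PNx 4), with 6 or 7 also without PNx 1, PNx 3, Control 2 or Control 4 and 9 without Control 5. For PNx+NaKtide against PNx they ran from 0 (without PNx 1) to 17 (without PNx 4), with 12 without PNx 5, 10 without PNx 6, and 1 or 2 without PNx 2, PNx 3 or PNx+NaKtide 1, 5 or 6.

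In choices made after seeing the data, PNx 1 to 3 or NaKtide 6 and PNx 6 were left out. Without PNx 1 to 3 the unadjusted count for PNx against Control was 5, beside 11.1% of all genes, and the median was 0.05 (all genes -0.05). Signs turned for Cul1 (-0.53), Fbxo44 (-0.86), Fbxo3 (-1.03), Fbxw17 (-0.55), Fbxw10 (-0.46) and Fbxo2 (-1.69). For PNx+NaKtide against PNx they turned for Fbxo30 (0.44), Cul3 (0.16), Fbxo43 (0.92) and Fbxo39 (0.54). Without NaKtide 6 and PNx 6, 12 of 69 members passed for PNx against Control, 10 of them higher, beside 21.8% of all genes. The median was 0.22 (all genes 0.02). For PNx+NaKtide against PNx, 13 members had an unadjusted p under 0.05, beside 19.7% of all genes. In the main fit of all 24 libraries, the 50 tested members without opposite-strand overlap gave 11 higher and 1 lower for PNx against Control at an unadjusted p under 0.05. These were 22% and 2%, beside 19.9% and 5.07% of all genes without overlap. For PNx+NaKtide against PNx they gave 0 higher and 4 lower (8%), beside 3.12% and 9.89%.

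With the replicate block the unadjusted count for PNx against Control was 17, beside 20.3% of all genes. Of these, 8 were higher and 9 lower, against 14 and 2 without the block. For PNx+NaKtide against PNx it was 4, all lower, beside 11.2% of all genes. No member passed, and the medians were 0.41 and -0.18, beside 0.17 and -0.22 for all genes. Libraries of the same number correlated at -0.592 to 0.712, and 19 of 36 pairs were above 0.1, so a pairing by number was not assumed, and these values do not settle it. The low depth limits what can be said of the 31 members under 100 counts. The cause of these changes was not tested.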
